A study of Mus musculus with 14 samples.

Results

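The 10 genes described here, out of 55414 in the deposited table, encode enzymes that build and sulfate heparan sulfate: Ext1, Ext2, Ndst1, Ndst2, Glce, Hs2st1, Hs6st1, Hs3st1, Hs3st3a1 and Hs3st3b1. The set was chosen from measured values of these libraries: it was built around Hs3st3b1, whose lower level in both obese mutants was already known, so its differences between the groups are given as a description without a test. The other 9 were added because they act on the same chain. The libraries hold RNA of granulosa cells (GCs), the somatic cells that surround the oocyte, taken from antral follicles of 2 mouse models of genetic obesity and the lean controls of each. The db/db mice (strain B6.BKS(D)-Lepr db/J) lack the long isoform of the leptin receptor, and the ob/ob mice (strain B6.Cg-Lep ob/J) lack leptin. Each library pooled about 50 cells. The db/db mice and their controls (CT db) gave 4 libraries per group, the ob/ob mice and their controls (CT ob) 3. All animals were females of 12 weeks fed chow. The labels give the controls as wild type, whereas the column names of the table read as heterozygous, and this was not settled here. Both mutations are carried in the whole body, and each model came with its own controls, so model and colony cannot be told apart. In these bulk libraries, fewer cells of a type and less RNA per cell cannot be told apart either.

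Heparan sulfate is a long sugar chain attached to core proteins of the cell surface and of the basement membrane. EXT1 and EXT2 together polymerise the chain in the Golgi. NDST enzymes then replace acetyl groups by sulfates, GLCE converts glucuronic into iduronic acid, and the 2-O-, 6-O- and 3-O-sulfotransferases add further sulfates. The pattern of these sulfates sets which proteins bind to the chain. 3-O-sulfation is the last and rarest step: chains made by HS3ST1 are known for binding antithrombin, whereas HS3ST3A1 and HS3ST3B1 make a different 3-O-sulfated motif, known as an entry receptor for herpes simplex virus. In the ovary, GCs are known for secreting anticoagulant heparan sulfate proteoglycans into the follicle.

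The total was 2204686 to 8367593 counts per library, and 3 counts, taken as the limit of detection, amounted to 0.359 to 1.36 CPM, which is the count relative to the library total. These limits cover counting error only. All 10 granulosa markers checked, Fshr, Foxl2, Amh, Amhr2, Inha, Inhba, Inhbb, Cyp19a1, Hsd17b1 and Nr5a2, had more than 3 counts in every library. Library 3 of CT ob stood apart from the other 2 of its group in several members, and results that rest on it are given with and without it. The libraries were not tied by the labels to single animals, so p-values measure the spread between libraries, part of which may be technical. Levels are CPM scaled by the trimmed mean of M-values (TMM). Fold changes, their standard errors (SE), and p-values adjusted over all genes tested come from the quasi-likelihood test of edgeR, called at an adjusted p of 0.05 or less.

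Transcripts of the chain polymerases, of the N-deacetylases, of the epimerase and of the 2-O- and 6-O-sulfotransferases were present in every library of every group, and none of them passed the test between mutants and controls. Hs3st3b1 was lower in both mutants: from CT db to db/db its mean went from 26.2 ± 9.56 to 9.81 ± 2.63 CPM (SD, n = 4), and from CT ob to ob/ob from 23.9 ± 18.2 to 3.47 ± 1.14 CPM (SD, n = 3). Its close paralog Hs3st3a1 was scarcer and followed the same order of group means. The remaining 3-O-sulfotransferase, Hs3st1, had higher means in both mutants, without passing the test.

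edgeR called 0 of the 9 members that could be fitted in db/db against CT db, where 0.00884% of all genes tested were called. In ob/ob against CT ob it called 0 of 9, against a background of 0%. Before adjustment, 1 member in each of these comparisons had a p under 0.05, and in both it was Hs3st3b1. The share of all genes with such a p was 7.59% in db/db against CT db and 8.16% in ob/ob against CT ob. DESeq2 on the same genes called 1 member in each, again Hs3st3b1, beside 0.389 and 0.692% of all genes, from which nothing is read because the set was chosen around that change. Between the controls, CT ob against CT db, 0 of 10 members were called, where 6.63% of all genes were, and 0 had an unadjusted p under 0.05, where 26.9% of all genes did. Between the mutants, ob/ob against db/db, 0 of 10 were called and 2 had an unadjusted p under 0.05 (Hs3st1 and Hs3st3b1), beside 0.0159% of all genes called and 8.18% with an unadjusted p under 0.05. Nothing is read from the p of Hs3st3b1, because the set was chosen around that gene. The difference between both mutant effects (interaction) gave 0 calls among the 10 members and 0% among all genes, and DESeq2 called 0 members in these last 3 comparisons, beside 12.4, 0.572 and 0.572% of all genes. Hs3st3a1 was left out of the fits within each model by the filter on low counts, and was fitted only with all 14 libraries.

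**Figure D1:**
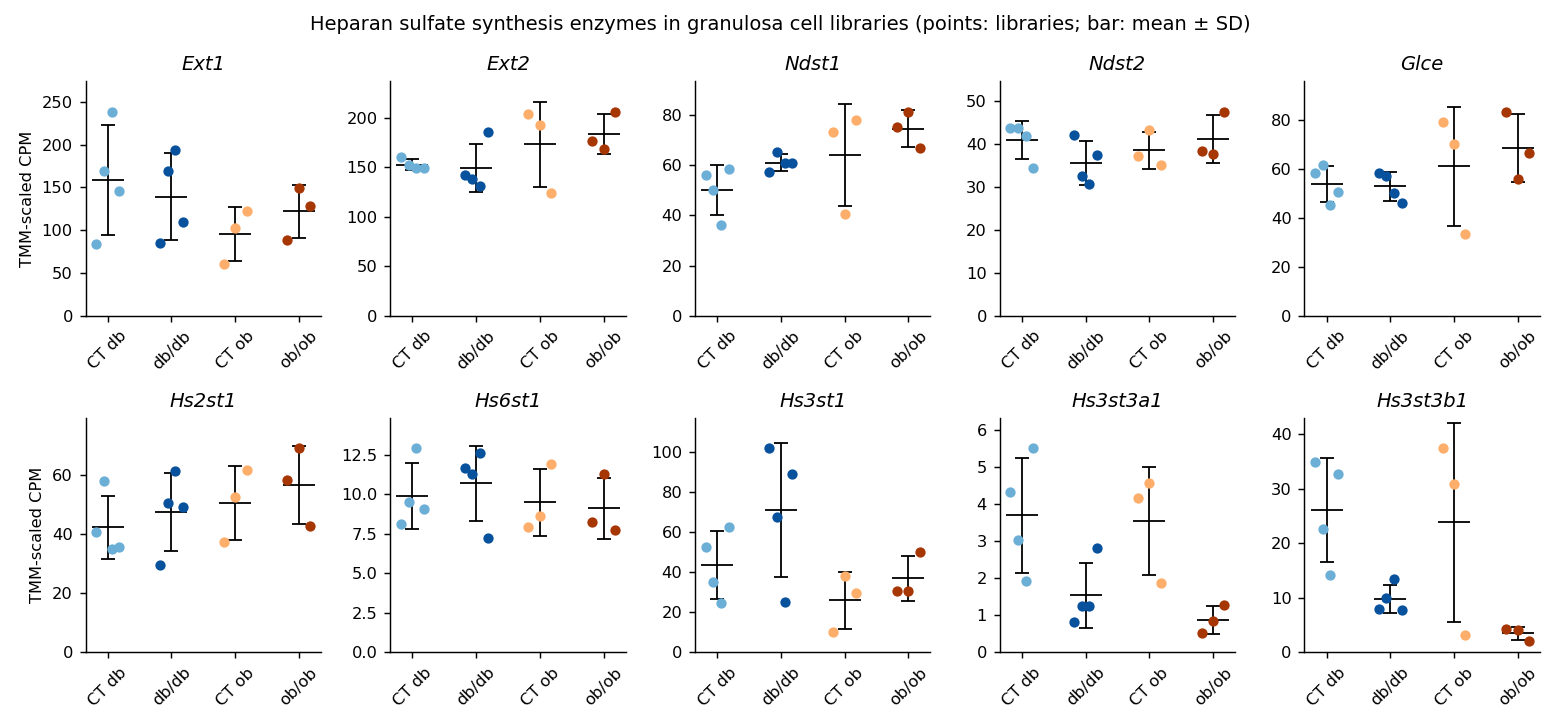
TMM-scaled CPM of the 10 members in each library (points) with the mean ± SD of each group (bars); every y axis starts at 0. Hs3st3b1 lay between 7.84 and 13.5 CPM in db/db and between 14.3 and 35.0 in CT db, while most other members overlapped between mutants and controls.

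Ext1 (chr15:52927434-53209602, minus strand, GRCm39) and Ext2 (chr2:93491373-93653003, minus strand) encode the subunits of the polymerase that lengthens the chain. Ext1 measured 83.3, 169, 238 and 145 CPM in the 4 CT db libraries and 84.6, 169, 194 and 109 CPM in db/db. In the ob model it measured 60.4, 102 and 123 CPM in CT ob and 88.8, 149 and 128 CPM in ob/ob. The groups overlapped in both models, and the spread among libraries of a group was wide, with a coefficient of variation of 40.3% in CT db. The fitted log2 fold change of Ext1 was -0.15 (SE 0.32, adjusted p = 0.936) in db/db and 0.29 (SE 0.32, adjusted p = 0.822) in ob/ob. Between the controls Ext1 was lower in CT ob on average, with a log2 difference of -0.70 (95% interval -1.48 to 0.09, adjusted p = 0.234).

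Ext2 behaved differently from its partner in that it hardly varied within CT db, where 4 libraries lay between 149 and 161 CPM with a coefficient of variation of 3.68%. Its means were 153 ± 5.62 CPM in CT db and 150 ± 24.3 CPM in db/db (SD, n = 4). In the ob model they were 173 ± 43.0 CPM in CT ob and 184 ± 19.9 CPM in ob/ob (SD, n = 3). The log2 fold change was 0.01 in db/db (95% interval -0.28 to 0.30, adjusted p = 0.988) and 0.05 in ob/ob (95% interval -0.41 to 0.51, adjusted p = 0.961). Library 3 of CT ob held the lowest Ext2 level of all 14 libraries, 124 CPM, and without it the log2 fold change in ob/ob was -0.10.

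Ndst1 and Ndst2 encode the enzymes that start sulfation by removing acetyl groups and adding N-sulfates. Ndst1 measured 56.1, 50.2, 36.0 and 58.3 CPM in CT db and 57.1, 65.1, 61.0 and 60.8 CPM in db/db. Only the lowest db/db library lay within the control range, and the log2 fold change was 0.33 (SE 0.16, adjusted p = 0.675). An exact permutation test of the difference in mean CPM, two-sided over all splits of these 8 libraries, gave p = 0.0571. In CT ob the Ndst1 levels were 73.1, 40.6 and 77.9 CPM, and in ob/ob they were 75.3, 81.3 and 66.6 CPM. These groups overlapped, with a log2 fold change of 0.16 (SE 0.28, adjusted p = 0.889).

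Between the mutants, Ndst1 was higher in every ob/ob library than in any db/db library, by a log2 difference of 0.23 (SE 0.22, adjusted p = 0.903). The exact permutation p was 0.0571, the smallest that 3 against 4 libraries allow. It was 1 of 2 members whose libraries did not overlap in that comparison, Hs3st3b1 being the other, beside 10.2% of all genes tested. Ndst2 stayed between 30.7 and 47.5 CPM across all groups, with group means of 40.9 ± 4.42 CPM in CT db, 35.7 ± 5.11 CPM in db/db, 38.5 ± 4.21 CPM in CT ob and 41.1 ± 5.54 CPM in ob/ob (SD). Its log2 fold change was -0.15 in db/db (95% interval -0.50 to 0.19, adjusted p = 0.845) and 0.05 in ob/ob (95% interval -0.40 to 0.50, adjusted p = 0.959). The other N-deacetylase genes, Ndst3 and Ndst4, did not exceed 3 counts in any library.

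Glce (chr9:61964527-62030067, minus strand) encodes the C5-epimerase that makes the chain more flexible by producing iduronic acid. Its means were 54.0 ± 7.42 CPM in CT db and 52.9 ± 5.85 CPM in db/db, which gave a log2 fold change of 0.01 (95% interval -0.32 to 0.34, adjusted p = 0.989). In the ob model Glce measured 79.5, 70.4 and 33.5 CPM in CT ob and 83.5, 55.9 and 66.5 CPM in ob/ob. The log2 fold change was 0.14 (SE 0.29, adjusted p = 0.918), and single libraries turned its sign: it was -0.12 without CT ob library 3 and -0.030 without ob/ob library 1.

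Hs2st1 (chr3:144134693-144276528, minus strand), the 2-O-sulfotransferase, had means of 42.4 ± 10.7 CPM in CT db, 47.7 ± 13.2 CPM in db/db, 50.6 ± 12.5 CPM in CT ob and 56.7 ± 13.2 CPM in ob/ob (SD). The mutant means were higher in both models, by log2 fold changes of 0.21 (SE 0.23, adjusted p = 0.853) and 0.11 (SE 0.29, adjusted p = 0.933). Exons of Hs2st1 overlap those of Selenof on the opposite strand, and 4.53% of the 75-base windows of its canonical transcript occur in Selenof. Selenof reached 2802 counts in a library, so part of the Hs2st1 count may stem from it.

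Hs6st1 (chr1:36107437-36145527, plus strand), which adds 6-O-sulfates needed by many growth factor receptors, was among the scarcest members, between 7.21 and 12.9 CPM over all libraries. Group means ranged only from 9.10 ± 1.91 CPM in ob/ob to 10.7 ± 2.39 CPM in db/db (SD), and the log2 fold changes were 0.14 in db/db (SE 0.28, adjusted p = 0.926) and -0.11 in ob/ob (SE 0.36, adjusted p = 0.950). Its isoenzyme Hs6st2 was detected in every library, between 6.73 and 35.1 CPM, while Hs6st3 did not exceed 1 count.

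**Figure D2:**
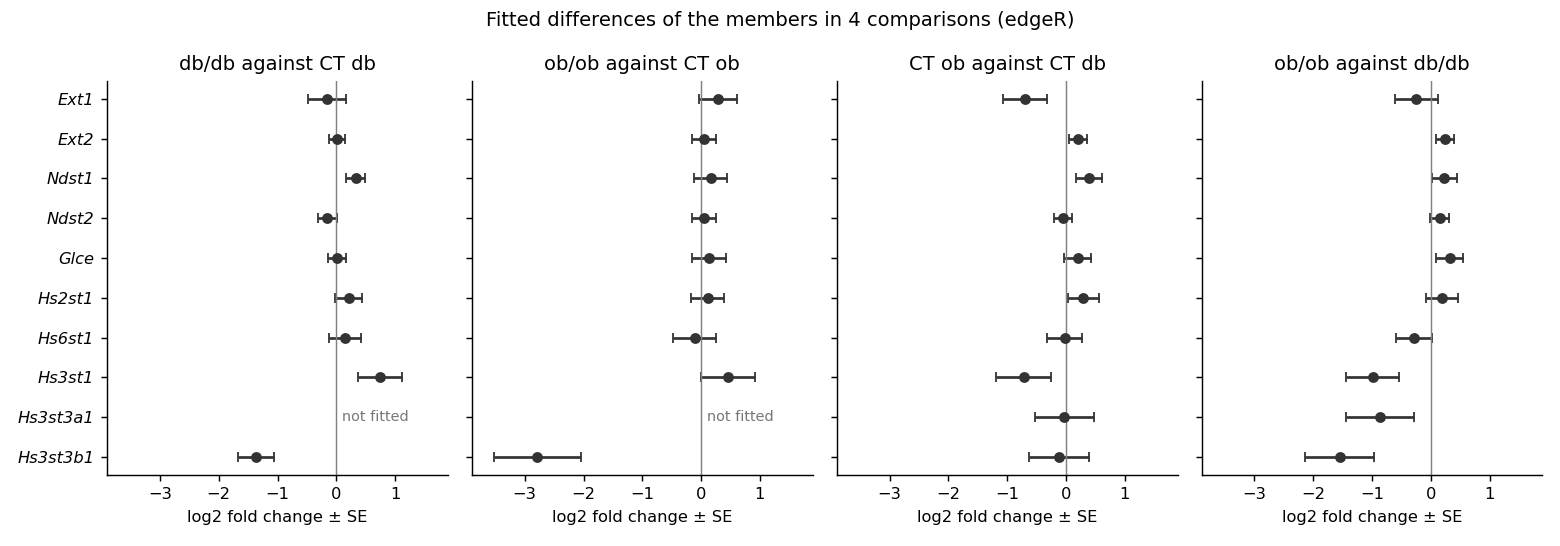
Fitted log2 fold change (points) ± SE (bars) of each member in 4 comparisons. Hs3st3b1 stood at -1.37 in db/db, -2.79 in ob/ob and -0.12 between the controls, where it was 0.36 without CT ob library 3 (not drawn). Hs3st3a1 could not be fitted within either model.

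The 3-O-sulfotransferases varied widely between libraries, with coefficients of variation from 26.8 to 76.5% within groups. Hs3st3b1 (chr11:63776612-63813168, minus strand) encodes the isoform 3B1. It measured 35.0, 22.7, 14.3 and 32.7 CPM in CT db and 7.92, 10.02, 13.5 and 7.84 CPM in db/db. No db/db library reached the lowest control library, although the gap was small: the nearest values, 13.5 and 14.3 CPM, both came from library 3 of their groups. The log2 fold change was -1.37 (SE 0.305), and behind it stood 52 to 121 counts per CT db library and 19 to 32 per db/db library. It was the 1 member of those fitted whose groups did not overlap in this comparison, beside 4.43% of all genes tested.

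In the ob model Hs3st3b1 measured 37.5, 31.0 and 3.13 CPM in CT ob and 4.21, 4.04 and 2.17 CPM in ob/ob. Control library 3, with 10 counts, lay inside the ob/ob range, and the other 2 lay far above it. The log2 fold change was -2.79 (SE 0.745) with all libraries and -3.29 without CT ob library 3, whose omission also raised the control mean from 23.9 to 34.2 CPM. Of the members fitted, 0 were free of overlap in this comparison, where 15.1% of all genes were.

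Between the lean controls, the log2 difference of Hs3st3b1 was -0.12 (SE 0.513) with all libraries. Without CT ob library 3 this difference was 0.36, so that library turned its sign. Between the mutants Hs3st3b1 was lower in ob/ob than in db/db, by a log2 difference of -1.55 (SE 0.589), and the highest ob/ob library lay below the lowest db/db library. The choice of Hs3st3b1 used values of these same libraries, so both differences are given as a description without a test. In CT ob against CT db, 0 members were free of overlap, beside 20.2% of all genes tested.

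Markers of luteinising cells differed between libraries as well. The summed level of the 8 luteal markers was 142 to 394 CPM in CT db and 97.6 to 351 CPM in db/db, and 46.8 to 727 CPM in CT ob and 68.0 to 127 CPM in ob/ob. Of these markers, Akr1c18 and Ptgfr did not exceed 3 counts in any db/db library, nor did Ptgfr in ob/ob. Their control levels were 3.47 to 37.4 CPM for Akr1c18 and 3.76 to 19.5 CPM for Ptgfr in CT db. In CT ob, Ptgfr measured 0, 68.8 and 0.938 CPM, so it was also near or below the limit of detection in control libraries. Sfrp4 lay between 21.1 and 33.0 CPM in CT db and between 0.417 and 2.195 CPM in db/db, without overlap, and measured 1.78, 202 and 3.75 CPM in CT ob and 1.93, 0.139 and 0.637 CPM in ob/ob. Other markers of the list overlapped between CT db and db/db. Their means went from 9.78 to 12.8 CPM for Star, 37.0 to 37.9 for Parm1, 74.2 to 71.0 for Cyp11a1, 27.2 to 11.6 for Lhcgr and 75.8 to 56.2 for Prlr. From CT ob to ob/ob the mean of Parm1 was higher, and those of Star, Cyp11a1, Lhcgr and Prlr were lower. Akr1c18 measured 3.77, 31.2 and 3.75 CPM in CT ob and 0.351, 0.139 and 1.66 CPM in ob/ob. These levels did not overlap, beside 15.1% of all genes tested in that comparison. In CT ob the luteal sums were 46.8, 727 and 118 CPM beside Hs3st3b1 levels of 37.5, 31.0 and 3.13 CPM. Oocyte markers summed to between 2.60 and 1031 CPM, with the highest value in CT ob library 1. The part of other cell types in the level of Hs3st3b1 was not tested.

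Hs3st3a1 (chr11:64326142-64413667, plus strand) lies on the same chromosome as Hs3st3b1 and encodes the closely related isoform 3A1. Its counts were 15, 14, 7 and 20 in CT db, 2, 3, 3 and 9 in db/db, 21, 18 and 6 in CT ob, and 3, 6 and 10 in ob/ob. In CPM these were 4.34, 3.03, 1.92 and 5.50 in CT db against 0.834, 1.25, 1.26 and 2.82 in db/db. The highest db/db library lay within the control range, and the exact permutation test gave p = 0.0571. In the ob model the levels were 4.16, 4.57 and 1.88 CPM in CT ob and 0.527, 0.837 and 1.27 CPM in ob/ob.

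All ob/ob libraries were below all CT ob libraries in Hs3st3a1, library 3 included, and the exact permutation p was 0.1, the smallest that 3 against 3 libraries allow. The low-count filter had left Hs3st3a1 out of the genes tested in this comparison, of which 15.1% did not overlap either. In a fit of all 14 libraries, the log2 fold change of Hs3st3a1 was -1.16 in db/db (SE 0.513, unadjusted p = 0.0391, adjusted p = 0.834) and -1.99 in ob/ob (SE 0.566, unadjusted p = 0.00308, adjusted p = 0.260). The counts of 2 to 21 per library set the precision of these values.

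The reads of both paralogs can be confused over part of their length, and the sequences below show where. Both genes have 2 exons. Their coding sequences are 87.5% identical over 1119 aligned bases, 74.0% in exon 1 and 98.5% in exon 2, with a longest identical run of 401 bases. Of the 75-base windows of the canonical transcript, 341 occur in both genes, which is 6.97% of the windows of Hs3st3b1 and 8.79% of those of Hs3st3a1. With up to 2 mismatches, the shares were 9.89% and 12.5%. The remaining windows separate the genes. A stretch of exon 2 identical in both genes (GRCm39, chr11:64411136-64411285, plus strand, in Hs3st3a1 and chr11:63780310-63780459, minus strand, in Hs3st3b1), within which a read cannot be assigned to either gene, reads 5′ to 3′:
Hs3st3a1 and Hs3st3b1: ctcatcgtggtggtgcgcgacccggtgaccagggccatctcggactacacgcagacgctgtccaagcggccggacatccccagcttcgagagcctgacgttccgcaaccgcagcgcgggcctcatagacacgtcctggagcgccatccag
The gap-free stretch of exon 1 with the most differences (chr11:64327289-64327438, plus strand, and chr11:63812174-63812323, minus strand) differs at 12 of 150 bases, given in capitals:
Hs3st3a1: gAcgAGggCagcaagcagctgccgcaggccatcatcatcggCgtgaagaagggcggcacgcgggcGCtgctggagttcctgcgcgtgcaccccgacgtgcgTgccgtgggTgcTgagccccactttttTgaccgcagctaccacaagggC
Hs3st3b1: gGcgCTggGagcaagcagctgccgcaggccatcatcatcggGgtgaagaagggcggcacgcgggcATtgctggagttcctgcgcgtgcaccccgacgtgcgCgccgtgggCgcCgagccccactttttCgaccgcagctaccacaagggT

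The share of Hs3st3a1 in the summed counts of both paralogs was 12.4% in CT db, 14.5% in db/db, 12.3% in CT ob and 21.3% in ob/ob, each pooled over the libraries of the group. When both were counted as 1 gene, the log2 fold change was -1.35 in db/db and -2.66 in ob/ob. Of the summed counts of all 14 libraries, 888 were those of Hs3st3b1 and 137 those of Hs3st3a1, so the sum largely repeats Hs3st3b1, and reads lost because they match both genes are not in it.

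The 250 bases upstream of the annotated start of each paralog (RefSeq, GRCm38.p6) are given because these genes had like profiles over the libraries. Their Pearson correlation was 0.79 over all 14 libraries and 0.29 within the mutant libraries alone. Capitals mark matches to the motifs searched on both strands: TTCNNNGAA (STAT), TGACGTCA (CRE), the TATA box TATAAA, the nuclear receptor site AAGGTCA of SF-1 and LRH-1, and the E box CACGTG. The search covered 300 bases, 50 of them after the start and not printed.
Hs3st3a1, chr11:64435082-64435331, plus strand: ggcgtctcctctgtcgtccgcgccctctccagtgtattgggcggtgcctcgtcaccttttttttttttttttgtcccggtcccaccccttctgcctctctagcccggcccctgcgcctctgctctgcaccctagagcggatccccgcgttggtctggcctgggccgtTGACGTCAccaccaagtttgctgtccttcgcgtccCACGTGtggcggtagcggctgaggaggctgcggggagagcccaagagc
Hs3st3b1, chr11:63922285-63922534, minus strand: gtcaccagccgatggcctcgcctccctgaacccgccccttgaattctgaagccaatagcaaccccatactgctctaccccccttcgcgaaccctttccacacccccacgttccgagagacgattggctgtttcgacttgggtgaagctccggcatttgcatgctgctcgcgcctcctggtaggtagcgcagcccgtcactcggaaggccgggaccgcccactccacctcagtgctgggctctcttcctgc
The Hs3st3a1 window held 1 match to TGACGTCA, present in 1.79% of 32851 promoters of that length, and 1 to the E box, present in 7.15%, and the matches do not overlap. The Hs3st3b1 window held none of the 5 motifs, and the TATA box, found in 13.6% of promoters, the STAT motif, in 8.30%, and the nuclear receptor site, in 4.72%, were in neither. Both windows were rich in CpG, with 23 each against a median of 7 over all promoters. Of the 8 members with a printed or searched promoter, the CpG number ranged from 18 to 47.

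Hs3st1 (chr5:39770231-39912818, minus strand) encodes the enzyme of the antithrombin-binding motif. It measured 52.3, 35.3, 24.7 and 62.5 CPM in CT db and 102, 67.6, 25.2 and 88.8 CPM in db/db. Of 4 db/db libraries, 3 lay above every control, and the other, library 3, lay near the lowest control. The log2 fold change was 0.74 (95% interval -0.07 to 1.56, adjusted p = 0.679), and an exact permutation test gave p = 0.200. The highest level, 102 CPM, came from db/db library 1, which also held the most theca markers (summed level 714 CPM, against 79.1 to 200 CPM in the other 13 libraries), surface epithelium markers (36.3 CPM, against at most 3.86 CPM) and leukocyte markers (24.2 CPM, against at most 18.04 CPM). Without that library the log2 fold change was 0.52 (adjusted p = 0.643), and the part of these cells was not tested. In the ob model Hs3st1 measured 10.3, 38.1 and 29.4 CPM in CT ob and 30.5, 30.5 and 49.9 CPM in ob/ob, which overlapped, with a log2 fold change of 0.46 (SE 0.46, adjusted p = 0.803).

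Across the models, Hs3st1 was lower in the ob colony in both states. The log2 difference was -0.71 between the controls (SE 0.47, adjusted p = 0.336) and -0.99 between the mutants (95% interval -1.97 to -0.02, unadjusted p = 0.0466, adjusted p = 0.606). Both comparisons overlapped between libraries. With no filter on low counts, Hs3st1 passed the threshold in db/db against CT db (adjusted p = 0.0195), in CT ob against CT db (adjusted p = 0.0367) and in ob/ob against db/db (adjusted p = 0.00669), and in no other alternative did it do so.

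Counted per kilobase of the canonical transcript, Hs3st1 made up most of the summed level of the 3-O-sulfotransferases among the members in 13 of 14 libraries. This depends on the length used. Per kb of all annotated exons, the means of Hs3st1 and Hs3st3b1 were 8.10 and 5.25 CPM in CT db and 4.81 and 4.78 in CT ob. In the mutants they were 13.1 and 1.97 in db/db and 6.86 and 0.696 in ob/ob. The shares below use the canonical transcript. Its share of the 3 genes' CPM per kb was 71.9 ± 1.85% in CT db and 88.8 ± 9.23% in db/db (SD, n = 4), and 62.1 ± 30.3% in CT ob and 93.1 ± 2.48% in ob/ob (SD, n = 3). Hs3st3b1 held 25.9, 25.2, 23.3 and 21.5% in the CT db libraries, a narrow range although the level of Hs3st3b1 itself varied from 14.3 to 35.0 CPM among them. In db/db its share was 4.11, 7.49, 22.2 and 4.56%, so library 3 lay inside the control range and the others far below it. In CT ob the share was 61.1, 29.4 and 5.34%, and in ob/ob 7.01, 6.71 and 2.30%. CT ob library 3 again lay among the mutants. These shares contain the lower Hs3st3b1 level by which the set was chosen, so no test was made on them. The other genes of the family are not part of these shares. Hs3st2, Hs3st4 and Hs3st6 did not exceed 3 counts in any library, and Hs3st5 reached at most 15 counts, in CT ob library 3. In that library its 4.69 CPM exceeded the 3.13 CPM of Hs3st3b1 and the 1.88 CPM of Hs3st3a1.

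**Figure D3:**
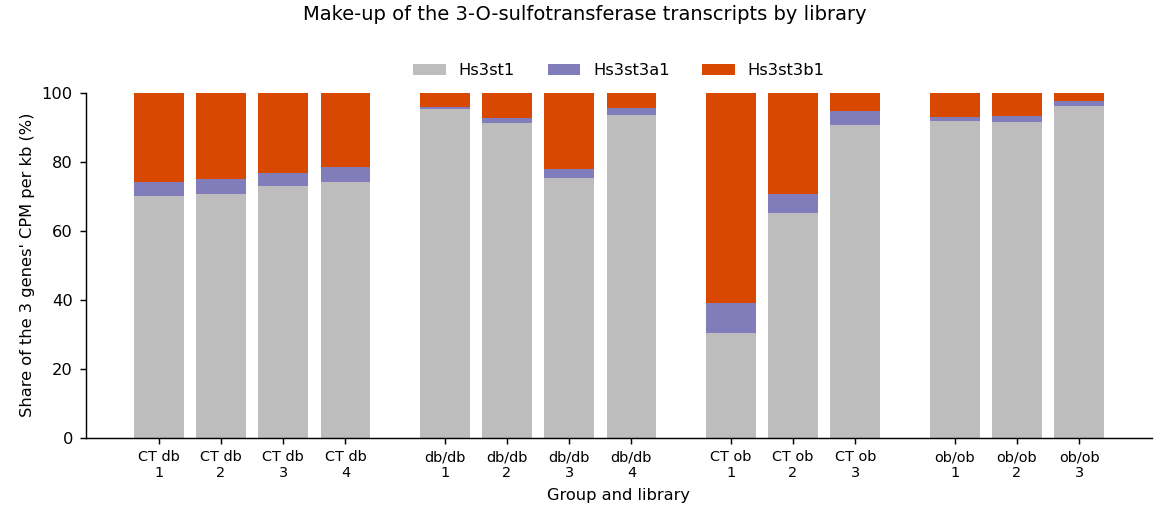
Share of Hs3st1, Hs3st3a1 and Hs3st3b1 in their summed CPM per kb, by library (stacked bars reach 100%). Hs3st3b1 held 21.5 to 25.9% in CT db, 4.11 to 7.49% in 3 of 4 db/db libraries and 2.30 to 7.01% in ob/ob.

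Levels of different genes were compared as CPM per kb of the canonical transcript. Over all 14 libraries Ext2 came first, with 55.0 ± 8.95 CPM per kb (SD), and lay above Ext1, 17.1 ± 6.38, in 14 of 14 libraries. Ext1 and Hs3st1 (16.8 ± 9.47) were not separated, each being the higher in 7 libraries, and Hs3st1 exceeded Glce (11.8 ± 2.75) in only 8. Glce lay above Ndst2 (9.70 ± 1.21) in 12 libraries, and Ndst2 and Ndst1 (9.41 ± 2.04) could not be ordered. Hs2st1 followed with 7.20 ± 1.79, then Hs3st3b1 with 3.25 ± 2.61 and Hs6st1 with 2.62 ± 0.528, and Hs3st3a1 came last with 0.618 ± 0.412, below Hs6st1 in 14 of 14 libraries. Hs3st3b1 had rank 8 in both control groups and rank 9, behind Hs6st1, in both mutant groups. These ranks contain the lower Hs3st3b1 level by which the set was chosen. With the length of all annotated exons its rank was 6 in CT db, 8 in CT ob, 8 in db/db, ahead of Hs6st1, and 9 in ob/ob. With the length of all annotated exons in place of the canonical transcript, chosen after the values were seen, Ext1 came first and Ext2 second, because 13372 bases are annotated as exons of Ext2 and only 2961 belong to its canonical transcript.

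**Figure D4:**
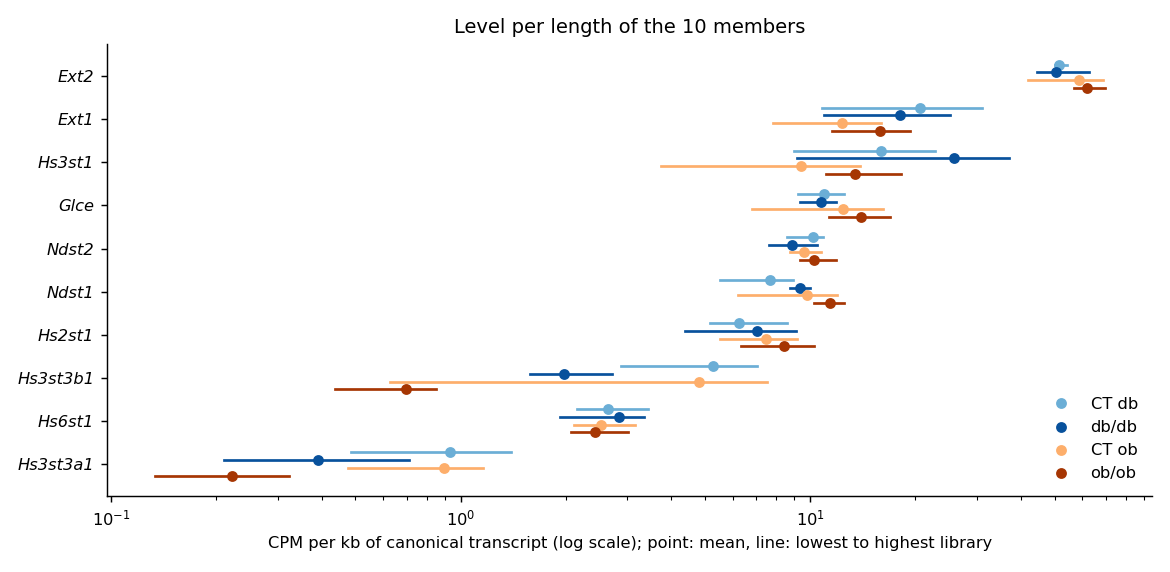
CPM per kb of the canonical transcript on a log axis, with the mean (point) and the lowest to highest library (line) of each group. Ext2 was the highest and Hs3st3a1 the lowest in each group.

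Some members varied together across libraries irrespective of group. The library with the highest level of Inhba, which encodes a subunit of inhibin and activin, was also that with the highest Ext1 level in each of the 4 groups: library 3 of CT db, db/db and CT ob, and library 2 of ob/ob. The same libraries were the highest of their group in Inhbb and in Hs6st1. Inhba ranged from 24.8 to 2547 CPM, and Inhba and Inhbb are 2 of the 10 granulosa markers. The summed level of the other 8 was the highest of its group in these libraries in CT db, CT ob and ob/ob, with 7822, 9028 and 10641 CPM, but not in db/db, where library 2 held 8001 CPM and library 3 held 7854 CPM.

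After removal of the group means from log2 CPM, Ext1 and Inhba had a Pearson correlation of 0.86 over 14 libraries, Hs6st1 and Inhbb one of 0.88, and Glce and Inha one of -0.80. These were the extremes chosen after seeing all 100 pairs of a member and a granulosa marker, whose median was -0.18. The libraries share depth and composition between genes, so the values are descriptive. With Inhba, Hs3st3b1 stood at -0.32 and Hs3st1 at -0.29, opposite in sign to Ext1. Over all granulosa markers, Hs3st3b1 ranged from -0.65 with Inha to 0.045 with Amh, and was at -0.44 with Inhbb. Hs3st1 ranged from -0.50 with Cyp19a1 to 0.30 with Amhr2. Among the members themselves, without removal of group means, the strongest relations over the 14 libraries were between Hs6st1 and Ext2 (-0.80), Hs3st3a1 and Hs3st3b1 (0.79), Glce and Ext2 (0.68), and Hs6st1 and Ext1 (0.62).

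**Figure D5:**
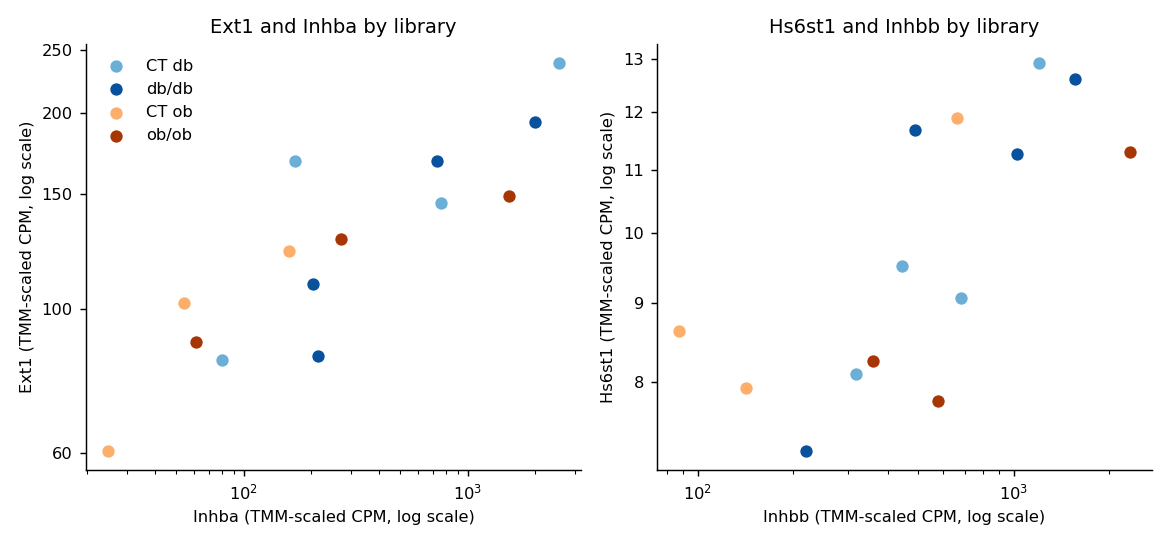
Ext1 against Inhba and Hs6st1 against Inhbb in the 14 libraries, in TMM-scaled CPM on log axes, coloured by group. In each group the library highest in Inhba was the highest in Ext1, and that highest in Inhbb was the highest in Hs6st1.

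Of 12585 other genes, those most like Hs3st3b1 over the 14 libraries, by Pearson correlation of log2 CPM, were Ckap2l (0.81, Spearman 0.87), Arhgap29 (0.80, Spearman 0.78), Hs3st3a1 (0.79, Spearman 0.72), Prkd1 (0.78, Spearman 0.79) and Carm1 (0.77, Spearman 0.77). Hs3st3a1 was the nearest of the members, and the nearest after it, Glce, stood at 0.21 and Ndst1, the farthest, at -0.52. The values over all 14 libraries contain the lower Hs3st3b1 level by which the set was chosen. For these 5 genes the Pearson correlations were 0.80 to 0.92 within the 7 control libraries alone. Within the 7 mutant libraries alone they were 0.29 to 0.71, that of Hs3st3a1 being the lowest. In either subset 0 of the 5 were among the closest 5. Of the 5, 1 remained among the closest 5, Hs3st3a1, when the libraries farthest from the median Hs3st3b1 level were left out (ob/ob library 3 and CT ob library 3).

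The wider set of heparan sulfate genes held 84 genes: precursor and linker enzymes, isoenzymes, editing enzymes, core proteins, lysosomal enzymes, the chondroitin branch, and heparin-binding ligands with their partners. In db/db against CT db, 0 of 52 fitted genes were called, and 5 had an unadjusted p under 0.05, a share close to the 7.59% of all genes. Hbegf, a heparin-binding growth factor of the EGF family, had a log2 fold change of 0.84 (SE 0.27, adjusted p = 0.527), and Ugp2, which makes UDP-glucose, one of -0.51 (SE 0.17, adjusted p = 0.553). In ob/ob against CT ob, 0 of 59 were called and 8 had an unadjusted p under 0.05, as did 8.16% of all genes. The smallest p-values there belonged to Dsel, an epimerase of the dermatan sulfate branch (log2 fold change 0.69, SE 0.19, adjusted p = 0.539), and to Papss2, which makes the sulfate donor PAPS (0.60, SE 0.18, adjusted p = 0.539).

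Between the lean controls, 5 of 60 genes were called, a share close to that of all genes (6.63%), and 22 had an unadjusted p under 0.05, beside 26.9% of all genes. Gpc1, a glypican that carries heparan sulfate, was higher in CT ob by 1.71 on the log2 scale (SE 0.39, adjusted p = 0.0251). Sdc1, a syndecan core protein, was higher by 0.89 (SE 0.24, adjusted p = 0.0386), and Fgfr1, a receptor whose ligands bind heparan sulfate, by 1.25 (SE 0.29, adjusted p = 0.0277). Papss2 was lower in CT ob, with a log2 difference of -1.01 (SE 0.18, adjusted p = 0.0101), as was Dsel with -0.67 (SE 0.17, adjusted p = 0.0362). Leaving out CT ob library 3 ended the calls of Gpc1, Sdc1, Fgfr1 and Dsel (adjusted p = 0.0765, 0.124, 0.105 and 0.0821), and several other libraries did so too; the call of Papss2 was kept without each library in turn. The summed endothelial markers were also higher in CT ob (8.13 to 32.0 CPM) than in CT db (3.18 to 8.24 CPM), and their part in these calls was not tested.

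Between the mutants, 0 of 60 genes of the wider set were called and 9 had an unadjusted p under 0.05, beside 8.18% of all genes. Hbegf was at -1.45 in ob/ob against db/db (SE 0.44, adjusted p = 0.348) and Serpinc1, which encodes antithrombin, at 2.25 (SE 0.81, adjusted p = 0.434). The interaction called 0 of 60, with 7 under an unadjusted p of 0.05 (8.11% of all genes), led by Dsel (0.83, SE 0.24, adjusted p = 0.382) and Papss2 (0.76, SE 0.24, adjusted p = 0.452). DESeq2 on the same genes called 0, 1, 9, 0 and 0 genes of the wider set in db/db against CT db, ob/ob against CT ob, CT ob against CT db, ob/ob against db/db and the interaction. Over all genes DESeq2 called 0.389, 0.692, 12.4, 0.572 and 0.572%. The 1 gene in ob/ob against CT ob was Col18a1, a basement membrane core protein outside the naming rule, with 25.4, 19.8 and 5.63 CPM in CT ob and 3.86, 0 and 1.40 CPM in ob/ob. The sum of the 5 endothelial markers was also lower in ob/ob: it was 24.2, 32.0 and 8.13 CPM in CT ob and 7.20, 8.09 and 7.26 CPM in ob/ob. The mean of each of the 5 was lower in ob/ob. It went from 9.54 to 1.64 CPM for Kdr, but only from 1.61 to 1.52 CPM for Cdh5. In CT ob, library 3 was the lowest in both Col18a1 and the sum. In ob/ob, where the sums lay close together, library 2 had the lowest Col18a1 level and the highest sum. The part of endothelial cells in the result was not tested. Sulf2, an extracellular enzyme that removes 6-O-sulfates and named after its values were seen, had means of 403 ± 36.4 CPM in CT db, 408 ± 47.9 CPM in db/db, 406 ± 59.9 CPM in CT ob and 385 ± 66.5 CPM in ob/ob (SD).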

How the data were processed

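RNA-seq libraries of pooled GCs were made with an oligo-dT, Smart-seq2 based protocol without molecular identifiers, in which strand is not kept. The authors deposited raw counts per gene, made from single reads of 75 bases. The study's methods name cutadapt, STAR, GRCm39 and featureCounts, whereas the submitters' processing notes name FastQC, Trim Galore 0.6.2, HISAT2 2.1.0 and GRCm38. Which was used for the table was not settled, and 98.8% of its identifiers were found in the GRCm39 annotation used here. The strand setting and the treatment of reads matching several places are not given in the sources used here. Reads matching both Hs3st3a1 and Hs3st3b1 may therefore be lost or shared. Columns not used numbered 0. Columns were assigned to groups by their names, which carry no replicate number of the labels, and libraries are numbered in column order.

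Counts were filtered with filterByExpr (minimum count 10, minimum total 15), scaled by TMM and tested with quasi-likelihood tests in edgeR 4.0.16 (limma 3.58.1, R 4.3.3), with Benjamini-Hochberg adjustment over all genes tested. Each model was fitted on its own, and comparisons between controls, between mutants and of the interaction came from a fit of all 14 libraries. Intervals are 95% intervals from the SE and the t distribution with the degrees of freedom of the fit. Correlations used log2 CPM with a prior count of 2. Single members were also compared by exact permutation, two-sided. It cannot give a p below 0.1 for 3 against 3 libraries, 0.0571 for 3 against 4 or 0.0286 for 4 against 4. DESeq2 1.42.0, other scalings and filters, downsampling and leaving out libraries served as alternatives. The fits were tested on simulated data.

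The members and the gene lists were chosen with earlier results of these data known. All 10 members are named. From the wider lists, the called genes of each comparison (at most 5) or otherwise the 2 with the smallest p are named, with the 5 genes most like Hs3st3b1. Other genes were named after their values were seen. Sequences were read from GRCm39 and from RefSeq promoters of GRCm38.p6, in which 8 of the members were searched. Member promoters on chromosome 18, which holds Ndst1, were left out, and no promoter of Ext1 was available. Proteins were not analysed here.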

Additional observations from a re-analysis of the deposited data

How the results depend on the processing

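No member other than Hs3st3b1, Hs3st1 and Ext1 was called in any alternative. In place of 0 members called, DESeq2 called 1 (Hs3st3b1) in each model, on the same genes as on all genes with a count. With no filter on low counts, edgeR called 2 (Hs3st1, Hs3st3b1) in db/db against CT db, 1 (Hs3st3b1) in ob/ob against CT ob, 2 (Hs3st1, Ext1) in CT ob against CT db, and 2 (Hs3st1, Hs3st3b1) in ob/ob against db/db, and the cause was not tested. All other alternatives, each omitted library included, called 0. No paired analysis was possible because the columns carry no replicate number of the labels.

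The direction turned only for small log2 differences, none of them called. In db/db against CT db, Ext2 was at -0.0022 (DESeq2, all genes with a count), -0.016 (no filter) and -0.017 (downsampled), and Glce at -0.0014 (DESeq2, same genes), -0.0073 (DESeq2, all genes with a count) and -0.019 (no filter). Downsampling gave -0.17 for Hs2st1 in ob/ob against CT ob, and 0.0057 for Ndst2 and 0.038 for Hs3st3b1 in CT ob against CT db. Library totals alone gave 0.0099 for Hs6st1 in ob/ob against CT ob and 0.026 for Hs3st3a1 in CT ob against CT db.

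Omitting each library in turn moved db/db against CT db from -0.37 to 0.10 for Ext1, -0.094 to 0.065 for Ext2 and -0.071 to 0.086 for Glce. In ob/ob against CT ob the ranges were -0.10 to 0.15 for Ext2, -0.087 to 0.40 for Ndst1, -0.052 to 0.12 for Ndst2, -0.12 to 0.34 for Glce, -0.10 to 0.35 for Hs2st1 and -0.30 to 0.15 for Hs6st1. In CT ob against CT db they were -0.0086 to 0.44 for Glce, -0.29 to 0.13 for Hs6st1, -0.23 to 0.23 for Hs3st3a1 and -0.58 to 0.36 for Hs3st3b1. For Hs3st3b1 the range was -1.58 to -1.21 in db/db and -3.29 to -2.33 in ob/ob. Group means in CPM moved by less than their SD in all 220 recomputations. Depth limits Hs3st3a1 most, at 2 to 21 counts per library.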
